A study of Homo sapiens with 18 samples.

Results

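Retinoic acid metabolism and signalling were followed through 10 genes: CYP26A1, CYP26B1, DHRS3, RARA, RARB, RARG, RXRA, CRABP1, CRABP2 and STRA6. They were taken by symbol from a table of 26372 genes, and each symbol had 1 row with a value in all 18 libraries. All 10 passed the filter for testing, a mean of at least 1 FPKM (fragments relative to the length of the transcript and the size of the library) over all libraries, which 13785 genes passed. CYP26A1 and CYP26B1 passed it only through the libraries labelled day 18.

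All-trans retinoic acid is a derivative of vitamin A that drives neuroblastoma cells to leave the cell cycle and extend neurites. Inside the cell it is carried by the binding proteins CRABP1 and CRABP2, binds receptors of the RAR family that pair with RXR on DNA, and is destroyed by the CYP26 oxidases. Several genes of the system are themselves activated by the receptors, among them RARB and CYP26A1, which forms a feedback on the ligand.

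The libraries were made from rRNA-depleted total RNA of SH-SY5Y, an established human neuroblastoma line of noradrenergic character. Cells were infected with lentivirus carrying ZNHIT3, tied by the title of the series to the assembly of snoRNPs, as the wild type (WT), with the C14R substitution or with a short deletion. Libraries labelled day 0 or day 18 numbered 3 for each construct and day, giving 6 groups. Induction began 48 hours after infection and lasted 18 days in serum-free neurobasal medium with B27, 10 µM all-trans retinoic acid, 50 ng/ml BDNF, 2 mM dibutyryl cyclic AMP and 20 mM KCl, so the effects of retinoic acid, of the other agents, of serum removal and of time cannot be told apart.

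All groups, WT included, carry a lentiviral construct derived from FUGW, a plasmid built around the ubiquitin C promoter. The labels name no change to the cells' own ZNHIT3 gene. The deletion is labelled 251-254 in replicate 1, 251-255 in replicate 2 and 251-256 in replicate 3, while the series design names 251-254 alone. The labels do not say whether replicates came from separate cultures, so every p-value measures the spread between these libraries, which may be technical.

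Column sums ranged from 553539 to 2222220 FPKM, and the steps between low values placed the relative depth of day 0 libraries at 59.0% to 84.4% and of day 18 libraries at at least 81.9% of the deepest. ZNHIT3 itself was at 538 ± 6.33 (WT), 424 ± 7.09 (C14R) and 303 ± 9.40 FPKM (deletion) on day 0 and at 1153 ± 46.1, 653 ± 88.9 and 302 ± 9.89 FPKM on day 18 (SD, n = 3 each). Of 12 noradrenergic markers, 11 were at 1 FPKM or more in every day 0 library and 10 in every day 18 library. The exception at day 0 was TH, the enzyme that starts catecholamine synthesis, which was below 0.1 FPKM. Library 1 of C14R at day 18 was the lowest of the 9 day 18 libraries in 27.0% of tested genes, against 7.36% to 13.1% for the others, and in 8 of the 10 retinoic acid genes.

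From day 0 to day 18 all 10 genes changed with each of the 3 constructs, 7 upward and 3 downward. The rises were led by CYP26B1 and CYP26A1, the enzymes that degrade retinoic acid, followed by DHRS3, CRABP2, RARB, CRABP1 and, by a small margin, RARA. RXRA and STRA6 fell to between 0.327 and 0.455 times their day 0 means, and RARG fell slightly. Such calls were frequent in the whole table: 72.2% of tested genes passed the same threshold, an adjusted p under 0.05, in WT (38.2% higher, 34.0% lower). With C14R it was 72.9%, made up of 37.9% higher and 35.0% lower genes, and with the deletion 73.0%, made up of 38.6% higher and 34.4% lower genes. The count of 10 of 10 is therefore close to the background, and it is the size of the changes that is described here. Values are FPKM as deposited, and changes are differences of log2(FPKM + 1) tested with limma.

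**Figure D1:**
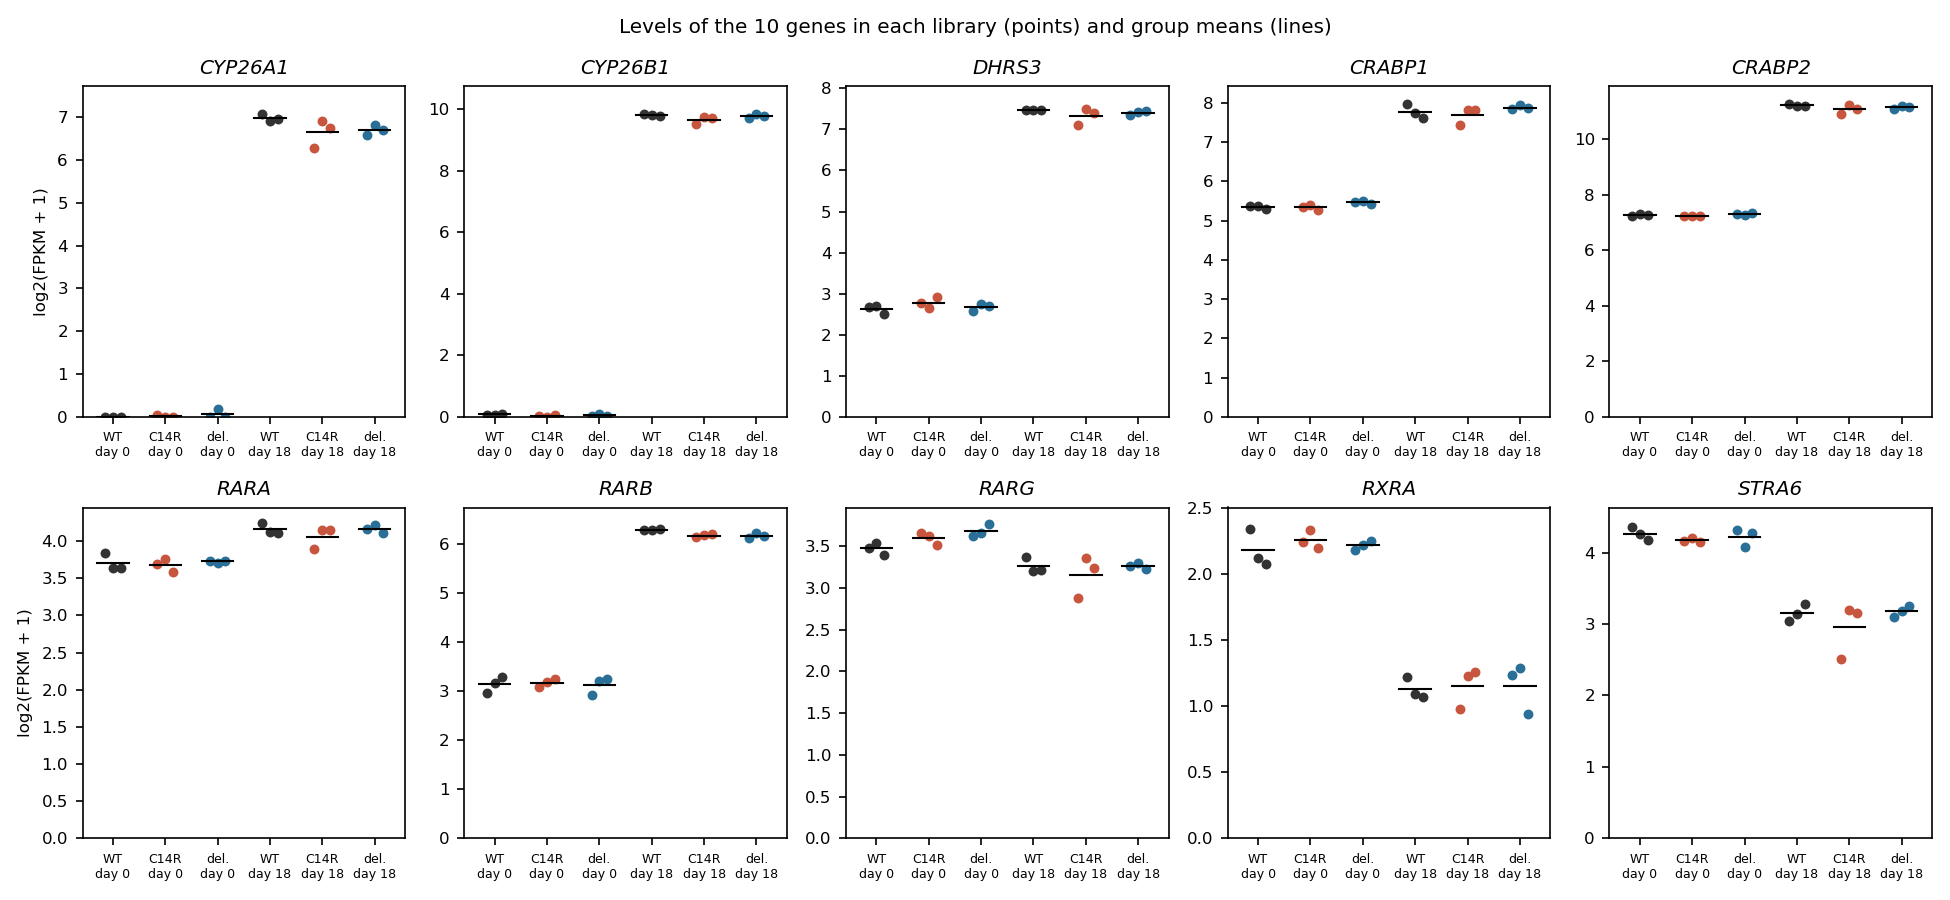
Level of each of the 10 genes as log2(FPKM + 1) (vertical axis, a separate scale for each gene) in every library (points) of the WT, C14R and deletion (del.) groups at day 0 and day 18, with group means (lines). In every panel the 3 points of a day 18 group lie entirely above (7 genes) or entirely below (RARG, RXRA and STRA6) the 3 points of the same construct at day 0.

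The promoters of 2 members carry the sequence element through which retinoic acid receptors are known to act, and they are shown as a description. The element is a direct repeat of a hexamer with a spacer of 5 bases (DR5). The search took the classical hexamer AGGTCA, its variant AGTTCA, another variant GGGTCA, or else the variant GGTTCA, any of these followed by any of these in the same orientation, on both strands. It covered RefSeq windows of 300 bases (250 before to 50 after each start, GRCh38.p14), of which all 10 members had at least 1, 23 in all. Only 31 of 35116 windows held such a DR5 (0.0883%), and the members with one were RARB and CYP26A1. CYP26B1, DHRS3, CRABP2, CRABP1 and RARA also rose and had none in these windows. The part of the element in the rises was not tested.

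In RARB the element lies at chr3:25428210-25428226, 53 to 37 bases before a start at 25428263, on the strand of the gene. This stretch is upstream of that start and inside an intron of the longer transcript RARB-202. The 250 bases before the start (chr3:25428013-25428262, + strand, 5′ to 3′) are printed with the direct repeat and its spacer in capitals.
RARB: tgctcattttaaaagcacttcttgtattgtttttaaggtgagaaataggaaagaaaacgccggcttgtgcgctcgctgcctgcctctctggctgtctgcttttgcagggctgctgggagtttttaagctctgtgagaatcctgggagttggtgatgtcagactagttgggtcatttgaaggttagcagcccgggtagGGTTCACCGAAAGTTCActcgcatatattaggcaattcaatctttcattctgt

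In CYP26A1 it lies at chr10:93073803-93073819, 90 to 74 bases before a start at 93073893 and read on the opposite strand. The longer transcript CYP26A1-202 has its 5′ UTR there, so 30 bases are given (chr10:93073797-93073826, + strand), the repeat again in capitals. Read along the strand of the repeat, with the hexamers in capitals and the spacer in lower case, the elements of RARB and CYP26A1 compare as follows.
CYP26A1 promoter: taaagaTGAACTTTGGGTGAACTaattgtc
CYP26A1 element: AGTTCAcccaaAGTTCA
RARB element: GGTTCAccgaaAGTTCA

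Both elements share the second hexamer, AGTTCA. Direct repeats of the same hexamers with a spacer of 1 base were in 46 windows (0.131%) and with 2 bases in 14 (0.0399%), and in 0 member windows. A single hexamer on its own is common, since 38.6% of all windows held at least 1, as did 11 of the 23 member windows (CRABP2, CYP26A1, DHRS3, RARA, RARB, RXRA and STRA6). A match describes letters in the window, and the libraries hold no measurement of receptor binding.

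CYP26B1 (chr2:72129238-72148038, − strand, GENCODE 29 on GRCh38) and CYP26A1 (chr10:93073475-93077890, + strand) encode cytochrome P450 enzymes that oxidise retinoic acid to inactive products. At day 0 CYP26B1 was at 0.0493, 0.0471 and 0.0759 FPKM in WT, 0.0155, 0 and 0.0330 in C14R and 0.0150, 0.0592 and 0.0296 in deletion libraries. These are near the lowest values the libraries could record, since all 9 were within 0.01 of a whole multiple, from 0 to 5, of the smallest step, taken as that of a single fragment. At day 18 CYP26B1 was at 913, 902 and 882 FPKM in WT, 734, 868 and 839.6 in C14R and 842, 924 and 876 in deletion libraries. It thus went from near the limit of detection to the second most abundant transcript of the set, with no overlap between days.

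The log2 change of CYP26B1 was 9.73 with WT, 9.64 with C14R and 9.73 with the deletion (standard error 0.0523 for each; limma adjusted p = 6.52e-25, 7.60e-25 and 6.51e-25). It was the largest rise of all 13785 tested genes with each construct. CYP26B1 passed the filter only through day 18, so its call and rank follow partly from that filter. The size rests on the pseudocount, because the day 0 level is near 0, and with a pseudocount of 0.1 the WT change of CYP26B1 was 12.5.

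CYP26A1 was listed at 0 in all 3 WT libraries at day 0, at 0.0342, 0 and 0 FPKM in C14R and at 0, 0.131 and 0 in deletion libraries. By day 18 it stood at 133.8, 119.8 and 122 FPKM in WT, at 76.4, 119.4 and 107 in C14R and at 94.4, 111 and 103 in deletion libraries. Nothing was recorded in 7 of 9 day 0 libraries, while every day 18 library was at 76.4 FPKM or more. The log2 change was 6.98 with WT, 6.63 with C14R and 6.63 with the deletion (standard error 0.113 for each; limma adjusted p = 3.85e-18, 7.58e-18 and 7.54e-18), ranking 2nd in WT and 3rd with both variants. CYP26A1 likewise passed the filter only through day 18, and its call and rank carry the same limit. No fold is given for either enzyme, with day 0 at or near 0.

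CYP26B1 was the more abundant of the pair in every day 18 library. The ratio of CYP26B1 to CYP26A1 was 7.18 ± 0.352 with WT, 8.24 ± 1.21 with C14R and 8.59 ± 0.291 with the deletion (SD, n = 3 each). The deletion libraries (8.34 to 8.91) lay above the WT libraries (6.82 to 7.53), and C14R (7.27 to 9.60) overlapped both. The third member of the family, CYP26C1, was listed at 0 at day 0 and at no more than 0.0746 FPKM at day 18.

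DHRS3 (chr1:12567910-12617731, − strand) encodes a reductase that turns retinaldehyde back into retinol and so limits the formation of retinoic acid. Its levels at day 0 were 5.40, 5.48 and 4.71 FPKM in WT, 5.86, 5.31 and 6.53 in C14R and 4.94, 5.67 and 5.50 in deletion libraries. At day 18 they were 177.3, 177.5 and 175.5 FPKM in WT, 138, 179.9 and 167 in C14R and 162, 170.2 and 173 in deletion libraries. The days were far apart, and the low value at day 18 was again C14R library 1. Mean FPKM rose 34.0-fold with WT, 27.4-fold with C14R and 31.4-fold with the deletion, with log2 changes of 4.84, 4.55 and 4.74 (standard error 0.0826 for each; limma adjusted p = 6.96e-18, 1.61e-17 and 9.23e-18).

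CRABP2 (chr1:156699606-156705816, − strand), which carries retinoic acid to the receptors in the nucleus, was the most abundant member in all 6 groups. It was at 149, 160.0 and 155 FPKM in WT, 151, 150.5 and 149.9 in C14R and 158, 156 and 162 in deletion libraries on day 0. At day 18 it reached 2464, 2389 and 2357 FPKM in WT, 1941, 2422 and 2169 in C14R and 2208, 2345 and 2281 in deletion libraries. No day 18 library came near the day 0 range. Mean FPKM rose 15.5-fold with WT, 14.5-fold with C14R and 14.3-fold with the deletion, or 3.95, 3.84 and 3.83 on the log2 scale (standard error 0.0582; limma adjusted p = 1.39e-18, 2.22e-18 and 1.86e-18).

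CRABP1 (chr15:78340324-78348230, + strand) binds retinoic acid in the cytosol. Its day 0 levels were 40.1, 40.6 and 38.4 FPKM in WT, 39.8, 41.0 and 37.8 in C14R and 43.6, 44.6 and 42.0 in deletion libraries. Day 18 brought 250.5, 212 and 195 FPKM in WT, 171, 226 and 226 in C14R and 229, 246 and 231 in deletion libraries. The rise was smaller than that of CRABP2 and the spread at day 18 wider. Mean FPKM rose 5.52-fold with WT, 5.26-fold with C14R and 5.42-fold with the deletion, with log2 changes of 2.43, 2.35 and 2.41 (standard error 0.0913; limma adjusted p = 1.75e-13, 2.65e-13 and 1.74e-13).

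With both carriers rising, the ratio of CRABP2 to CRABP1 went from 3.89 ± 0.164 to 11.1 ± 1.13 in WT, from 3.81 ± 0.147 to 10.5 ± 0.884 in C14R and from 3.66 ± 0.180 to 9.68 ± 0.158 in deletion libraries (SD, n = 3 each). The ranges of the 2 days did not overlap with any construct.

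Among the receptors RARB (chr3:25174332-25597932, + strand), the beta form and a gene with a DR5 shown earlier, rose most. At day 0 it was at 6.84, 7.996 and 8.74 FPKM in WT, 7.51, 8.15 and 8.44 in C14R and 6.62, 8.21 and 8.48 in deletion libraries. At day 18 RARB was at 76.7, 76.6 and 78.6 FPKM in WT, 69.7, 71.5 and 72.3 in C14R and 69.0, 73.7 and 70.5 in deletion libraries. The groups were tight at both days, and the lowest day 18 value was 69.0 against a highest day 0 value of 8.74. Mean FPKM rose 9.84-fold with WT, 8.86-fold with C14R and 9.15-fold with the deletion, which is 3.15, 2.999 and 3.05 in log2 (standard error 0.0775; limma adjusted p = 6.49e-16, 1.20e-15 and 8.86e-16).

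RARA (chr17:40309192-40357643, + strand), the alpha form, changed far less. It was at 13.3, 11.4 and 11.4 FPKM in WT, 11.9, 12.6 and 11.0 in C14R and 12.3, 12.1 and 12.3 in deletion libraries on day 0. At day 18 RARA was at 18.0, 16.4 and 16.3 FPKM in WT, 13.8, 16.8 and 16.7 in C14R and 16.98, 17.5 and 16.2 in deletion libraries. The narrowest gap was in C14R, where library 1 at 13.8 FPKM was just above the highest day 0 library at 12.6. Mean FPKM rose 1.40-fold with WT, 1.33-fold with C14R and 1.38-fold with the deletion, with log2 changes of 0.46, 0.38 and 0.44 (standard error 0.0736; limma adjusted p = 2.81e-05, 0.000163 and 4.37e-05).

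RARG (chr12:53210567-53232980, − strand), the gamma form, went the other way. It was at 10.2, 10.7 and 9.54 FPKM in WT, 11.6, 11.3 and 10.5 in C14R and 11.3, 11.6 and 12.6 in deletion libraries on day 0. At day 18 RARG was at 9.33, 8.19 and 8.30 FPKM in WT, 6.37, 9.26 and 8.45 in C14R and 8.60, 8.88 and 8.39 in deletion libraries. The WT ranges came within a fraction of an FPKM of each other (9.33 and 9.54). The log2 change was −0.44 in C14R and −0.42 in deletion libraries (standard error 0.0926; limma adjusted p = 0.000383 and 0.000636). In WT it was −0.21 with a limma adjusted p of 0.0489, a call that was lost in 5 of 10 other settings and in 14 of 18 fits that left out a library (all but those without C14R day 18 library 1 or 2, WT day 0 library 3 or WT day 18 library 1), over which the adjusted p ran from 0.00293 to 0.822. The difference of the RARG change from WT was not past the threshold (−0.23, adjusted p = 0.882 for C14R, and −0.09, adjusted p = 0.845 without C14R day 18 library 1; −0.20, adjusted p = 0.815 for the deletion).

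These shifts altered the make-up of the receptor transcripts. Of the summed FPKM of RARA, RARB and RARG in WT, RARB made up 26.2% ± 3.43 at day 0 and 75.2% ± 1.32 at day 18, RARA 40.1% ± 3.25 and 16.4% ± 0.802, and RARG 33.7% ± 1.68 and 8.37% ± 0.523 (SD, n = 3 each). The share of RARB at day 18 was 75.0% ± 2.24 in C14R and 73.6% ± 0.585 in deletion libraries, both overlapping WT. The summed level rose from 30.04 ± 0.276 to 103 ± 1.47 FPKM in WT, from 31.0 ± 1.09 to 94.9 ± 4.38 in C14R and from 31.9 ± 1.53 to 96.6 ± 3.06 in deletion libraries.

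**Figure D2:**
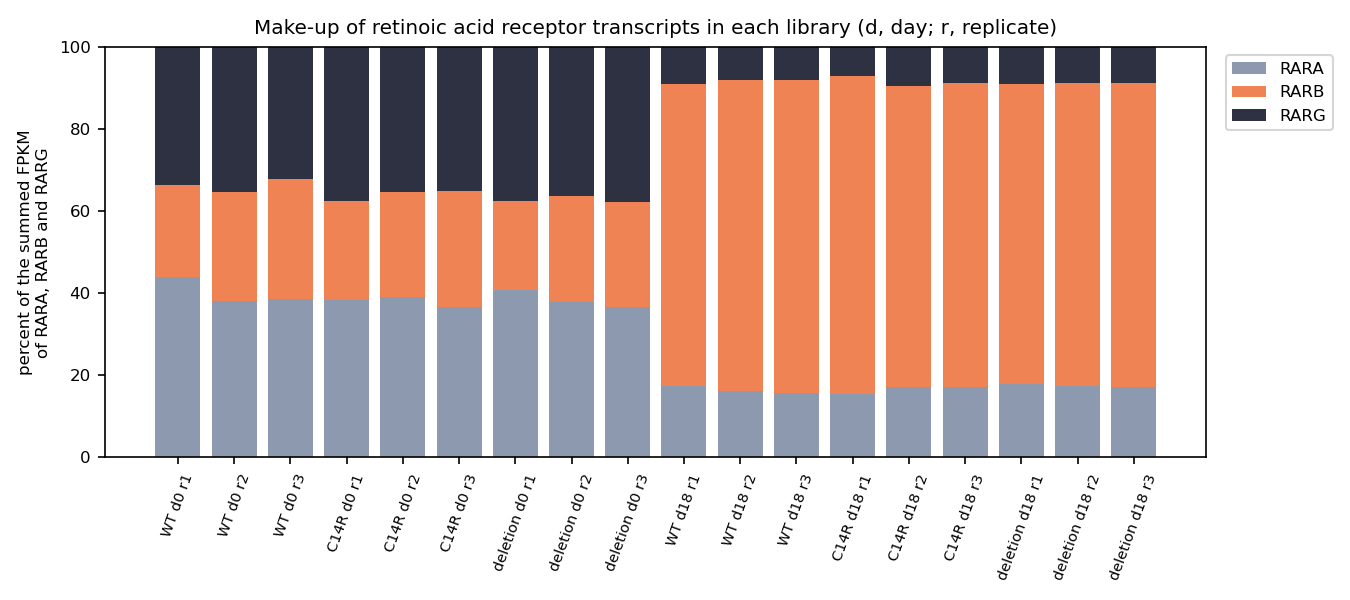
Percent of the summed FPKM of RARA, RARB and RARG (vertical axis) that each gene contributed, as a stacked bar for each of the 18 libraries. In WT, RARB accounted for 22.6% to 29.4% of the sum in day 0 libraries and for 73.7% to 76.2% in day 18 libraries.

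RXRA (chr9:134317098-134440585, + strand) encodes a partner with which the receptors bind DNA, and it was the least abundant member at day 18. At day 0 it was at 4.06, 3.36 and 3.23 FPKM in WT, 3.73, 4.04 and 3.59 in C14R and 3.53, 3.67 and 3.76 in deletion libraries. At day 18 RXRA was at 1.33, 1.13 and 1.10 FPKM in WT, 0.973, 1.35 and 1.39 in C14R and 1.35, 1.44 and 0.924 in deletion libraries. All 9 day 18 values were below all 9 day 0 values. Mean FPKM at day 18 was 0.335, 0.327 and 0.339 times that at day 0, and the log2 changes were −1.05, −1.10 and −1.06 (standard error 0.103; limma adjusted p = 6.65e-08, 3.70e-08 and 5.67e-08). At such low levels the pseudocount of 1 understates the change.

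RXRB, a second partner, was at 10.3 ± 0.952 FPKM at day 0 and 10.8 ± 0.276 at day 18 in WT (log2 change 0.07, limma adjusted p = 0.516), and it did not pass the test with the variants either. RXRG was listed at 0 in every library. The summed RXRA and RXRB level was 13.8 ± 1.14 and 12.02 ± 0.391 FPKM at day 0 and day 18 in WT.

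STRA6 (chr15:74179466-74212267, − strand), the membrane receptor through which cells take up retinol from its plasma carrier, had the largest fall of the set in WT on the log2(FPKM + 1) scale, while RXRA fell further as a ratio of mean FPKM. Its day 0 values were 19.6, 18.2 and 17.01 FPKM in WT, 16.9, 17.5 and 16.8 in C14R and 18.8, 15.9 and 18.4 in deletion libraries. At day 18 they were 7.28, 7.81 and 8.72 FPKM in WT, 4.69, 8.15 and 7.91 in C14R and 7.59, 8.07 and 8.54 in deletion libraries. Day 18 was lower in every library, lowest in C14R library 1. Mean FPKM at day 18 was 0.434, 0.406 and 0.455 times that at day 0, and the log2 changes were −1.11, −1.22 and −1.04 (standard error 0.130; limma adjusted p = 6.31e-07, 1.89e-07 and 1.31e-06).

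Between the days, groups did not overlap for any of the 10 members, nor for 75.7% (WT), 71.8% (C14R) and 77.7% (deletion) of tested genes. Set by size, 8 of 10 members passed with a log2 change of at least 1 with each construct, where 14.1%, 13.9% and 14.4% of tested genes did. The 8 include CYP26A1 and CYP26B1, which passed the filter only through day 18, so their inclusion follows from that filter. The member medians include them as well. The median log2 change of the members was 2.79 (WT), 2.68 (C14R) and 2.73 (deletion), against 0.03, 0.02 and 0.03 over all tested genes. The members were chosen with earlier results of these data known, so these shares and medians are a description only. In WT, DHRS3 ranked 8th, CRABP2 15th, RARB 36th and CRABP1 109th from the top.

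**Figure D3:**
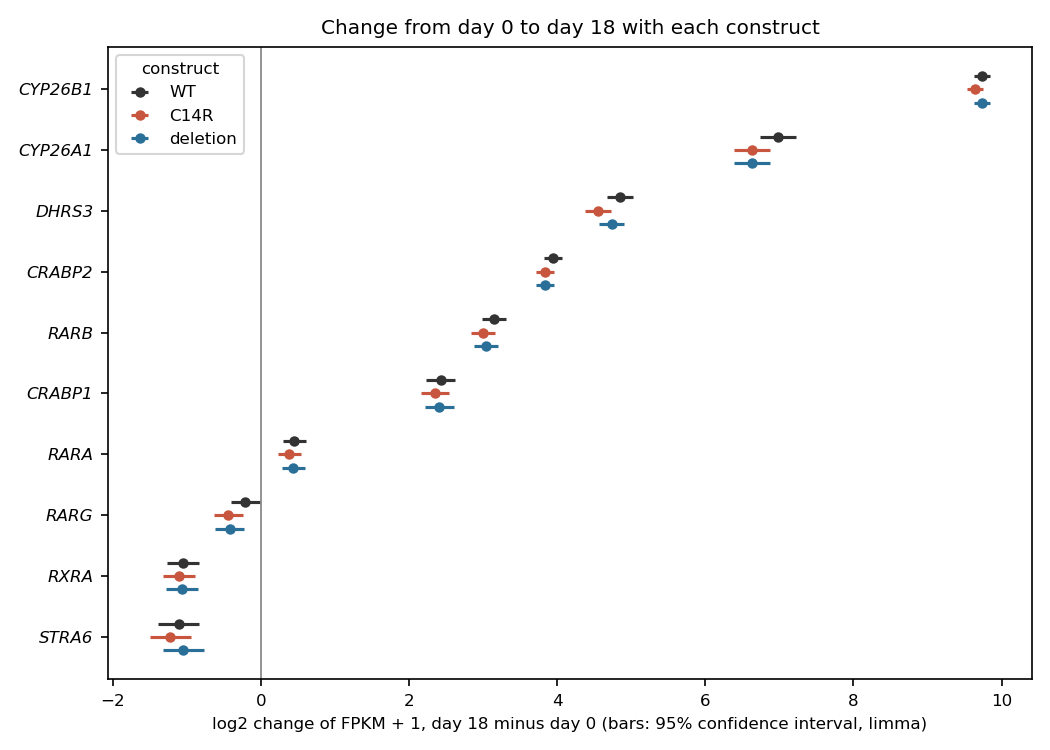
Log2 change of FPKM + 1 from day 0 to day 18 (horizontal axis) for each gene with each of the 3 constructs, as points with 95% confidence intervals from limma. The changes run from about 9.7 for CYP26B1 to between −1.22 and −1.04 for STRA6, and only in RARG with WT does the interval come close to 0.

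The order of the levels was rearranged as well. In WT at day 0 it ran CRABP2, CRABP1, STRA6, RARA, RARG, RARB, DHRS3, RXRA, CYP26B1, CYP26A1, and no neighbours overlapped in their libraries. With both variants RARA and RARG overlapped at day 0. In WT at day 18 the order was CRABP2 at 2403 ± 55.1 FPKM, CYP26B1 at 899 ± 15.7, CRABP1 at 219 ± 28.3, DHRS3 at 177 ± 1.06, CYP26A1 at 125 ± 7.43, RARB at 77.3 ± 1.16, RARA at 16.9 ± 0.975, RARG at 8.61 ± 0.631, STRA6 at 7.94 ± 0.726 and RXRA at 1.19 ± 0.125 (SD, n = 3 each). RARG and STRA6 could not be separated at day 18 with any construct, nor CRABP1 and DHRS3 in C14R.

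Marker levels of several cell states also differed between the days. The summed level of 12 noradrenergic markers was 1004 to 1092 FPKM in day 0 libraries and 2169 to 2420 in day 18 libraries, that of 12 neuronal markers 1094 to 1140 and 2314 to 2545, that of 16 mesenchymal markers 1299 to 1563 and 202 to 223, and that of 14 genes of dividing cells 532 to 581 and 175 to 229. Glial markers summed to at most 11.0 FPKM and blood and endothelial markers to at most 7.08. Their part in the changes of the 10 genes was not tested, and in these bulk libraries a change in the share of cells and a change in RNA per cell cannot be told apart.

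Reads of overlapping genes may also be shared, since the use of strand is not given in the sources used here. Exons of RARA share 556 bases with RARA-AS1 on the opposite strand (1.24 to 1.89 FPKM at day 0, 1.70 to 3.08 at day 18), those of STRA6 share 540 bases with CCDC33 (0.888 to 1.61, then 0.897 to 2.14) and those of RARB share 28 bases with TOP2B (97.9 to 107, then 80.4 to 108.5). Other overlapping genes have no deposited values. Exons of CYP26A1 share 750 bases with AL358613.3 on the same strand. On the opposite strand, CRABP1 shares 469 with AC011270.2 and RARA 291 with AC080112.3. The RARA change was itself only a few FPKM, and the part of reads from RARA-AS1 in it was not tested.

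Genes around the set were described from lists of the pathway, with all list members counted by the same test. Over all tested genes 38.2% were called higher and 34.0% lower in WT, so the list counts are a description only. The supply list holds enzymes and carriers of carotenoids, retinol and retinaldehyde. Not all of them act towards retinoic acid, so the counts of this list do not measure its supply. Of its 23 genes 11 were tested, and in WT 6 rose and 3 fell (median log2 change 0.34). ALDH1A3, which makes retinoic acid from retinaldehyde, went from 5.81 ± 0.420 to 12.01 ± 0.565 FPKM (log2 change 0.93, limma adjusted p = 3.28e-09). RDH10, which makes retinaldehyde from retinol, fell from 16.6 ± 0.961 to 5.94 ± 0.498 FPKM (−1.34, adjusted p = 1.90e-10). ALDH1A3 and RDH10 were called in the same direction with both variants. The sister enzymes ALDH1A1 and ALDH1A2 were under the filter (0.103 and 0.322 FPKM at day 0 in WT).

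Of 6 other genes of clearance and transport, 3 were tested. FABP5, a carrier that can pass retinoic acid to another class of receptor, fell from 44.0 ± 1.62 to 21.3 ± 0.862 FPKM in WT (log2 change −1.02, limma adjusted p = 2.25e-09), opposite to both CRABP genes. CYP3A5, a broad oxidase, rose from 1.54 ± 0.341 to 4.64 ± 0.128 FPKM (1.16, adjusted p = 1.80e-07).

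The list of other nuclear receptors had 14 of 22 genes tested, of which 7 rose and 2 fell in WT (median 0.11). NR2F1, an orphan receptor that binds at retinoid elements, went from 11.7 ± 0.440 to 79.2 ± 1.58 FPKM (log2 change 2.66, limma adjusted p = 2.00e-16). RORB, another orphan receptor, fell from 27.1 ± 0.396 to 1.09 ± 0.106 FPKM (−3.74, adjusted p = 7.34e-17). Of coactivators and corepressors 19 of 21 were tested, and 6 rose and 8 fell (median −0.08). The coactivator NCOA3 went from 11.0 ± 0.518 to 22.5 ± 1.38 FPKM (0.97, adjusted p = 2.98e-10), while the corepressor NCOR1 was at 31.0 ± 1.17 and 29.3 ± 1.68 FPKM and did not pass (adjusted p = 0.232).

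Of 36 known targets of retinoic acid outside the set, 20 were tested, and 11 rose and 4 fell in WT (median 0.44). In C14R libraries 12 rose and 5 fell, and in deletion libraries 10 rose and 6 fell. Calls in either direction were made for 72.2% (WT), 72.9% (C14R) and 73.0% (deletion) of all tested genes. The largest rise was that of NTRK2, the receptor for the BDNF in the medium, from 7.08 ± 0.483 to 83.1 ± 4.97 FPKM (log2 change 3.38, limma adjusted p = 1.80e-17). RET, a receptor tyrosine kinase of neuroblastoma cells, went from 83.1 ± 1.84 to 332 ± 2.57 FPKM (1.98, adjusted p = 1.10e-14) and the homeobox gene MEIS1 from 22.5 ± 0.821 to 57.1 ± 2.74 (1.30, adjusted p = 8.98e-14). NAV2 fell from 39.5 ± 1.69 to 15.9 ± 0.705 FPKM (−1.26, adjusted p = 4.16e-12). Rises above that of RARB were seen in only 1 of the 20, NTRK2.

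**Figure D4:**
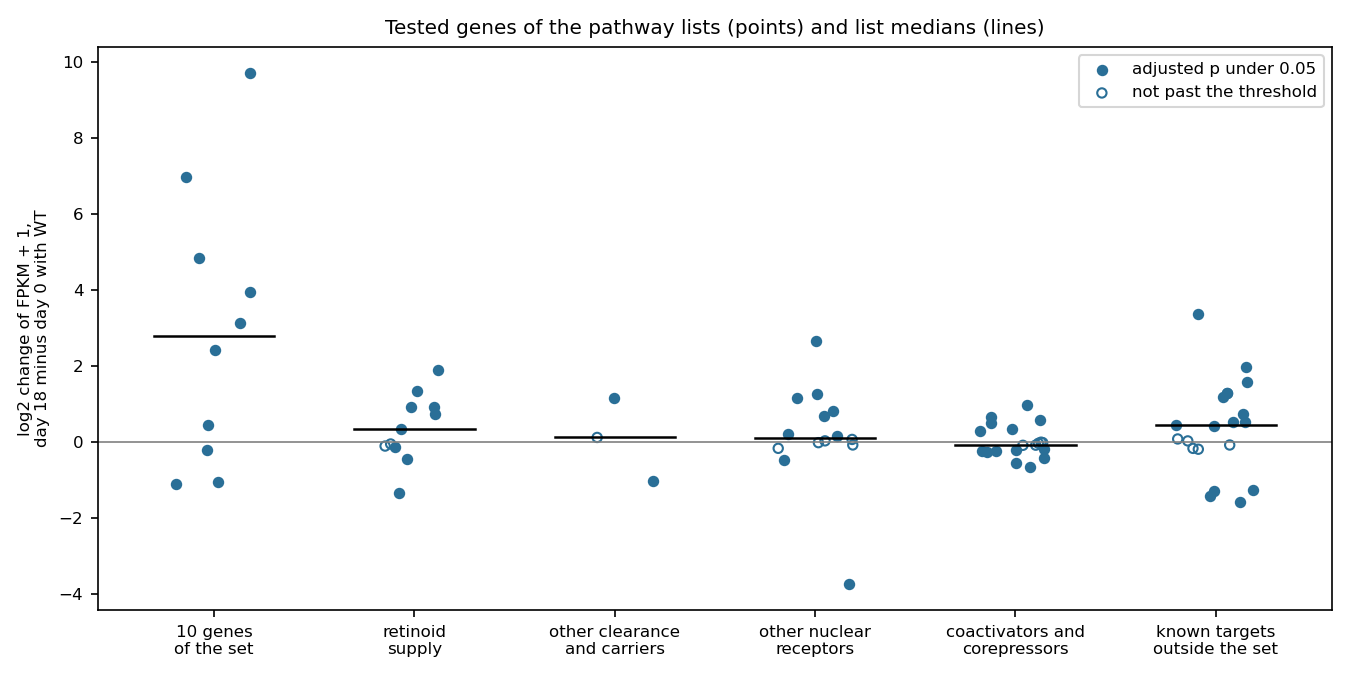
Log2 change of FPKM + 1 from day 0 to day 18 with WT (vertical axis) of every tested gene of the set and of the 5 lists (points; filled where the adjusted p was under 0.05), with list medians (lines). The median is 2.79 for the set and between −0.08 and 0.44 for the lists. Set and lists were chosen with earlier results of these data known.

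The patterns most like that of CYP26B1 across the 18 libraries, by Pearson's r of log2(FPKM + 1) and as a description only, belonged to NOS1 (r = 0.9997; 0.463 to 0.738 FPKM at day 0, 80.8 to 95.1 at day 18), DPYSL3 (0.9995; 61.6 to 68.1, then 357 to 399) and ECEL1 (0.9994; 0.0255 to 0.163, then 87.9 to 138). Those most like STRA6, the member with the largest fall on that scale in WT, were PCOLCE (0.987; 196 to 215, then 71.6 to 119), ZNF512B (0.986; 5.87 to 6.41, then 2.05 to 3.39) and EMILIN1 (0.986; 36.0 to 45.2, then 8.13 to 16.1). The 18 points fall into the 2 days, so such values mostly restate the difference between days.

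The constructs were compared to ask whether the ZNHIT3 variants alter these genes before or after differentiation. None of the 10 was called between constructs at either day or in the interaction of a variant with day. At day 18 CYP26A1 and RARB were nevertheless below WT in every C14R and every deletion library, and the members with non-overlapping groups at that day were all lower than WT. All comparisons with WT at a given day use the same 3 WT libraries, so their results are not independent of each other.

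At day 18 CYP26A1 averaged 80.5% of WT in C14R libraries (101 ± 22.1 against 125 ± 7.43 FPKM) and 81.9% in deletion libraries (103 ± 8.16). The log2 difference was −0.33 (95% interval −0.57 to −0.09; limma adjusted p = 0.264) and −0.29 (−0.53 to −0.05; adjusted p = 0.357). The fit shares 1 estimate of the spread over all 6 groups, and CYP26A1 was at 0 in 7 of 9 day 0 libraries. These intervals and p-values therefore do not measure the day 18 spread alone, and can be too narrow for C14R, the most spread group. The day change of CYP26A1 was smaller than with WT by 0.35 with each variant, with an adjusted p of 0.848 for C14R and 0.660 for the deletion. Without C14R library 1, CYP26A1 in C14R was at 90.3% of WT, and both remaining libraries were still below the lowest WT library. The log2 difference was then −0.15 (−0.31 to 0.01; adjusted p = 0.450) and the interaction −0.16 (−0.38 to 0.05; adjusted p = 0.715).

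RARB at day 18 was at 92.0% of WT in C14R (71.2 ± 1.33 against 77.3 ± 1.16 FPKM) and 91.9% in deletion libraries (71.1 ± 2.41). The log2 differences were −0.12 in both (95% interval −0.28 to 0.05, limma adjusted p = 0.624; −0.28 to 0.04, adjusted p = 0.587). C14R library 1 was close to its replicates in RARB, and without it the C14R level was 93.0% of WT and again below every WT library.

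CYP26B1 was below WT in all C14R libraries at day 18 (814 ± 70.7 against 899 ± 15.7 FPKM, 90.6%; log2 difference −0.15, 95% interval −0.26 to −0.04, limma adjusted p = 0.293). The limit of the shared spread given for CYP26A1 holds here too, since CYP26B1 was near the limit of detection at day 0. Without library 1 the C14R mean of CYP26B1 was 854 FPKM, with both libraries still below WT and a log2 difference of −0.07 (−0.16 to 0.01; adjusted p = 0.494). In deletion libraries it overlapped WT (881 ± 41.3 FPKM). CRABP2 and DHRS3 were below WT in all deletion libraries, at 94.8% and 95.3% of it (log2 differences −0.08 and −0.07; adjusted p = 0.649 and 0.789), and overlapped WT in C14R libraries.

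**Figure D5:**
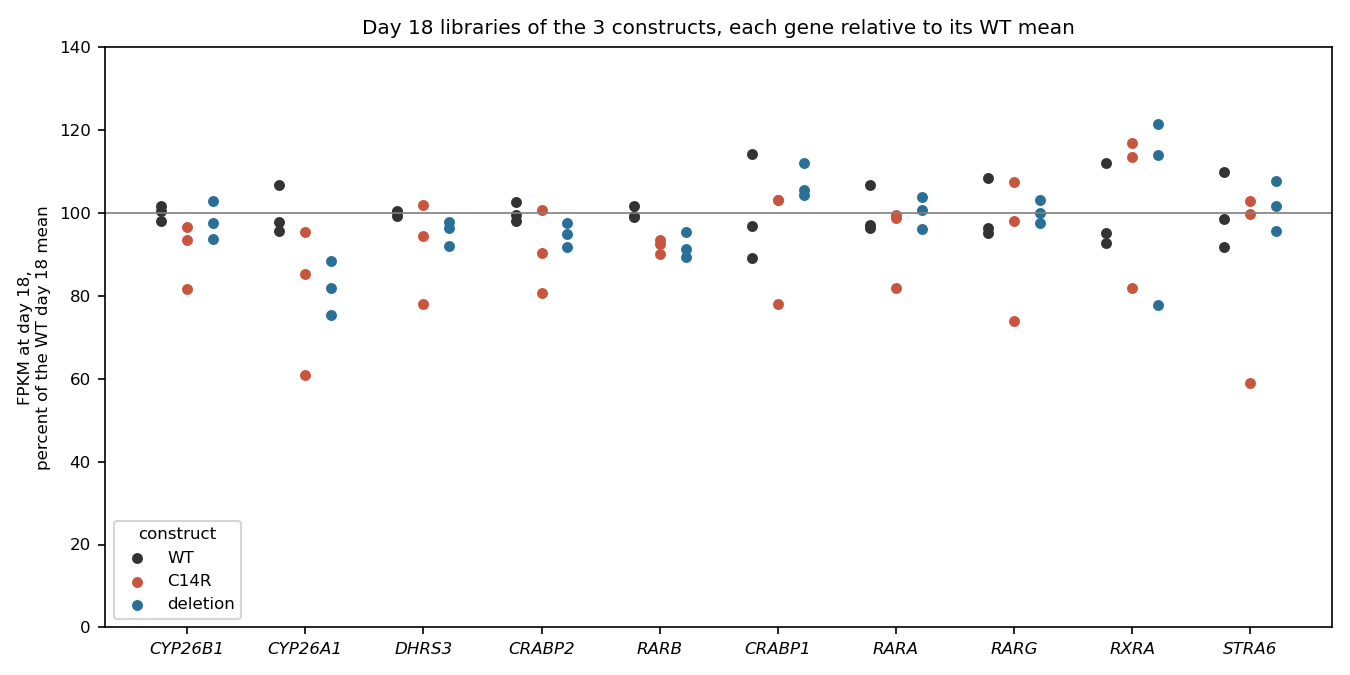
FPKM of each gene in the 9 day 18 libraries as a percent of the WT day 18 mean (vertical axis), with WT, C14R and deletion libraries as points of different colour and a line at 100%. CYP26A1 and RARB are the genes in which all C14R and all deletion points lie below all WT points; the lowest C14R point is library 1 in every gene.

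Set against all genes, 3 of 10 members did not overlap and were lower in C14R than in WT at day 18 (CYP26A1, CYP26B1 and RARB; 5.64% of tested genes), and 4 of 10 in deletion libraries (CYP26A1, CRABP2, DHRS3 and RARB; 8.53%). Calls at an adjusted p under 0.05 were made for 0 of 10 members in both comparisons, and for 0.0363% and 0.0725% of tested genes. At an unadjusted p under 0.05 limma gave 3 members in C14R (CYP26A1, CYP26B1 and CRABP2; 11.1% of tested genes) and 1 in deletion libraries (CYP26A1; 11.4%). Without C14R library 1 the 95% interval of the C14R difference included 0 for each of those 3 members. For CYP26A1 and CYP26B1 the p-values rest on a spread shared with day 0 libraries at or near 0. The same limit applies to these genes in all comparisons at day 18 and in the interactions. The part of C14R library 1 in the C14R count was not tested beyond the values without it given here, where RXRA also moved to 115% of WT, above every WT library.

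At day 0 the genes differed little between constructs. RARG was higher than WT in every deletion library (11.9 ± 0.677 against 10.1 ± 0.566 FPKM, 117%; log2 difference 0.21, 95% interval 0.01 to 0.40, limma adjusted p = 0.784), and so was CRABP1 (43.4 ± 1.28 against 39.7 ± 1.17, 109%; adjusted p = 0.845). For comparison, 8.68% of tested genes were higher without overlap there. In C14R only CYP26B1, at the limit of detection, did not overlap WT (lower; 5.33% of tested genes). Calls at day 0 were made for 0 of 10 members in C14R and deletion libraries and for 0.0% and 0.029% of tested genes; at an unadjusted p under 0.05 limma gave 0 members in C14R (2.81% of genes) and 1, RARG, in deletion libraries (6.22%).

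C14R and deletion libraries were also set against each other. CRABP1 was lower in C14R at both days without overlap, at 91.0% of the deletion level at day 0 (limma adjusted p = 0.639) and 88.3% at day 18 (207.8 ± 31.6 against 235 ± 8.99 FPKM; adjusted p = 0.448), and at 96.0% at day 18 without library 1. CRABP2 was lower in C14R at day 0, at 94.8% (adjusted p = 0.672). Lower values without overlap were found for 10.7% of tested genes at day 0 and 6.23% at day 18. None of the members was called at either day, against 0.058% and 0.029% of tested genes, and at an unadjusted p under 0.05 limma gave 0 members at day 0 (9.84% of genes) and 1, CYP26B1, at day 18 (11.2%).

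The interactions, which ask whether the day change differs from that in WT, were called for 0 of 10 members with C14R (0.0% of tested genes) and with the deletion (0.0145%). At an unadjusted p under 0.05 limma gave CYP26A1 and DHRS3 with C14R (5.73% of genes) and CYP26A1 with the deletion (7.36%). For DHRS3 with C14R the interaction was −0.29 (95% interval −0.54 to −0.05; adjusted p = 0.822) and, without C14R day 18 library 1, −0.18 (−0.38 to 0.02; adjusted p = 0.664). For CYP26B1 with the deletion it was 0.00 (−0.15 to 0.16; adjusted p = 0.999). No gene of the pathway lists was called between constructs or in an interaction.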

How the data were processed

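RNA was measured by RNA-seq in 18 libraries. The authors deposited FPKM, 1 value per gene symbol and library. Per the labels' protocols, RNA was extracted with TRIzol, treated with DNase I, depleted of rRNA with Ribo-Zero and made into libraries with a NEBNext Ultra kit. Per the submitters' processing notes, hg38, TopHat2, STAR and Cufflinks 2.2.1 were used. Annotation, strand use and scaling between libraries are not given in the sources used here.

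Groups and replicate numbers came from the sample titles, and 0 columns lacked a sample. Values were used as deposited. With limma 3.58.1 in R 4.3.3, the 6 group means of log2(FPKM + 1) were fitted over all 18 libraries for the 13785 genes with a mean of at least 1 FPKM, with a mean-variance trend. Benjamini-Hochberg adjustment ran over all tested genes within each of 11 comparisons, with a threshold of 0.05. The fit was tested on simulated data. FPKM hold no counts, so absolute depth is unknown, and relative depth came from the steps between low values. Same-numbered libraries did not deviate together (correlations from −0.363 to 0.168, median −0.01, over 45 pairs), so replicate numbers were not used as pairs.

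The members and lists were chosen with earlier results of these data known. Named genes were the 10 members, list genes, ZNHIT3 and the 3 genes most correlated with the member of largest rise and of largest fall. Some list genes are counted but not reported here by name. The alternatives tried were a minimum of 5 FPKM or none, a pseudocount of 0.1, median-of-ratios scaling, quantile normalization, rescaling after removal of small RNA genes, a replicate block, no variance trend, array weights, only the libraries compared, a log2 change of at least 1, and each replicate left out.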

Additional observations from a re-analysis of the deposited data

How the results depend on the processing

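Of the 30 day changes (10 genes, 3 constructs), 29 kept their direction and call in every refit, and 818 of 837 refits gave the same verdict. The stricter rule of a log2 change of at least 1 is not among these refits, and it removed RARA and RARG with every construct. The 19 others all lost the call of RARG in WT, with log2 changes from −0.23 to −0.02. None reversed. The number of members called between days ranged over fits without 1 library from 9 to 10 in WT and was 10 in C14R and deletion libraries. It was 8 of 10 when a log2 change of at least 1 was required. Between constructs and in the interactions it was 0 in every setting except C14R against WT at day 18, where it was 0 to 1 over the same fits, being 1 (CRABP2, lower) without C14R replicate 2 of day 18. That fit keeps the low replicate 1. With a minimum of 5 FPKM, RXRA could not be tested, leaving 9 members.

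With the replicate number as a block, 9 members were called in WT (RARG had an adjusted p of 0.0577), 10 in C14R and deletion libraries and 0 in all other comparisons. Only 3 of 18 libraries correlated best with their own number. Leaving out small RNA genes and rescaling shifted the WT median over all genes from 0.03 to 0.21 and RARG to −0.02 (adjusted p = 0.822). A pseudocount of 0.1 raised the WT change of CYP26A1 to 10.3 and of CYP26B1 to 12.5. Counts of called list genes moved by over 1.5 times in 21 of 840 refits. Depth limits CYP26A1 and CYP26B1 at day 0. There CYP26B1 values were 0 to 5 times the smallest step, taken as that of a single fragment. CYP26A1 was at 0 in 7 of 9 day 0 libraries.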
